A study of Mus musculus with 89 samples.

Results

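Lung transcriptomes were compared between CuO NH3, a copper oxide nanomaterial with a methylaminated surface, and CuO PEG, the same core with a polyethylene glycol coating, both at 40 μg/mouse and with a PBS challenge. The sample labels gave 3 samples of CuO NH3 and 3 samples of CuO PEG at this dose with a PBS challenge, 6 of the 89 samples of the series. All mice were female BALB/c, 6 to 8 weeks old, and all of them, controls included, had been sensitized with OVA and Alum on day 1 and day 10, so a PBS challenge means that the sensitized mice received no further allergen in the airways. After 10 days of recovery the materials were given by oropharyngeal aspiration on 4 consecutive days, and lung tissue was taken 24 h after the final exposure. The methods give independent pools of 2 RNA samples and 8 mice per group. The 7 samples of PBS-challenged controls would need more mice than that, and whether they came from 1 cohort was not given. The labels give the dose in μg in the sample descriptions and the same figures in mg in the treatment text, and μg is used here as in the methods. Both materials were dosed by equal mass of the whole particle, and the PEG-coated material holds less copper per mass, so the surface coating and the amount of copper cannot be told apart in this comparison. CuO PEG was also supplied as an aqueous suspension and CuO NH3 as a powder.

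Beside it, 5 further comparisons are given, namely the same 2 materials at 40 μg/mouse in OVA-challenged mice (3 samples each), at 10 μg/mouse (4 samples each) and 2.5 μg/mouse (3 samples each) in PBS-challenged mice, and each material at 40 μg/mouse against the 7 samples of PBS-challenged controls, which received no nanomaterial. In OVA-challenged mice, OVA was given together with the nanomaterial on the same days.

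Copper oxide particles that are taken up into cells dissolve in the acidic lysosome and release copper ions. Excess copper and zinc ions are bound by metallothioneins, small cysteine-rich proteins whose genes are switched on by the metal-sensing transcription factor MTF1 through metal response elements in their promoters. Injury of the airway and alveolar lining is followed by an influx of neutrophils and monocytes, the secretion of acute phase proteins and chemokines, proliferation of surviving cells and the deposition of a provisional matrix rich in fibronectin, tenascin and collagen.

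Of the CuO NH3 samples 2 were labelled with Cy5 and 1 with Cy3, and they lay on slides 4, 5 and 6, 1 on each. Of the CuO PEG samples 2 were labelled with Cy3 and 1 with Cy5, and they lay on slide 4 (2 samples) and slide 5 (1 sample). The median foreground intensity of these 6 samples was 62 to 90, 1.41 to 2.87 times the local background, 50.6 to 63.1% of spots were well above background, and 0 spots were saturated. Values are normalised log2 levels of a gene in a sample after the estimated effects of dye, slide and position on the slide had been removed. A log2 fold change is the difference between 2 group means on this scale, so that 1 is a 2-fold difference. A gene was called a differentially expressed gene (DEG) at an adjusted p below 0.05 in limma and an absolute log2 fold change above 0.58.

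At 40 μg/mouse, 1098 of 22911 genes (4.79%) differed between the materials in PBS-challenged mice, 618 (2.70%) higher and 480 (2.10%) lower after CuO NH3 than after CuO PEG. The median absolute log2 fold change of these DEGs was 0.76, and the median over all genes was 0.00. Of the 1098 DEGs, 1093 had no overlap between the 3 samples of one material and the 3 of the other, as did 37.1% of all genes. Slides 4 and 5 each held samples of both materials, and 1096 DEGs had the same sign within slide 4 and 1097 within slide 5. These signs come from the same samples that gave the calls. They were largely fixed by the calls and are no separate support for them. Leaving out each of the 6 samples in turn gave between 973 and 1173 DEGs. Against PBS-challenged controls, CuO NH3 had 2803 DEGs (12.2%), 1563 (6.82%) higher and 1240 (5.41%) lower, and CuO PEG had 698 (3.05%), 526 (2.30%) higher and 172 (0.751%) lower. Both of these comparisons use the same controls. Control replicates 1 to 3 lay on slides 1 to 3, which held no sample of either material. With slides 4 to 6 alone, CuO NH3 had 1570 genes higher and 1193 lower than controls, and CuO PEG 432 higher and 86 lower.

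**Figure D1:**
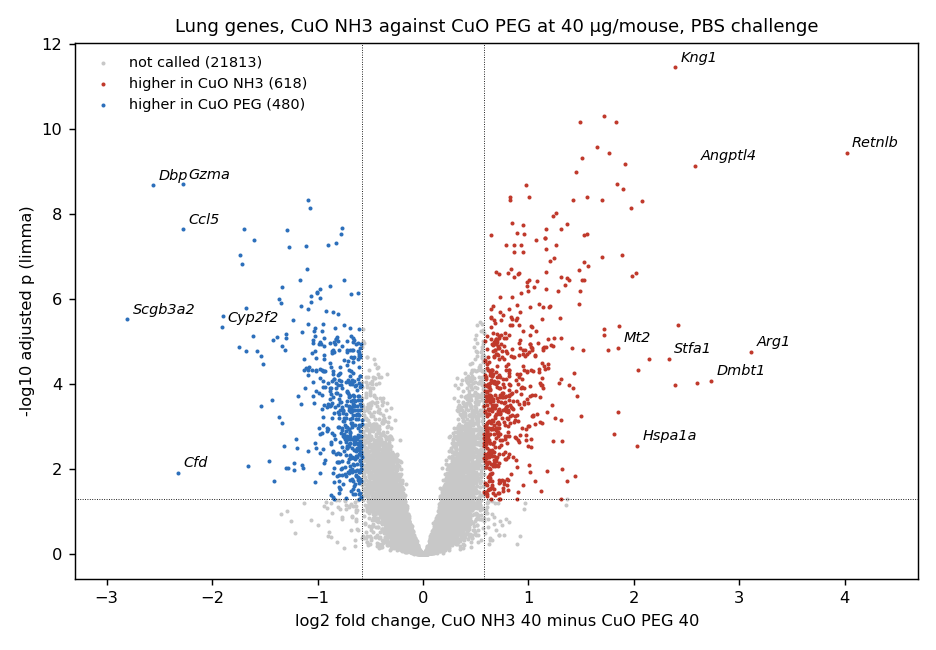
Log2 fold change between CuO NH3 and CuO PEG in PBS-challenged mice at 40 μg/mouse (x axis) and −log10 of the limma adjusted p-value (y axis), with 1 point per gene and the thresholds as dotted lines. Coloured points are the 618 genes higher and the 480 genes lower after CuO NH3, with Retnlb at 4.02 farthest to the right and Scgb3a2 at −2.80 among the lowest.

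The 10 largest rises held epithelial, macrophage and neutrophil genes. Retnlb, which encodes a secreted resistin-like protein of mucosal epithelium, stood at 11.20, 11.19 and 11.04 in the CuO NH3 samples and at 7.11, 6.99 and 7.27 in the CuO PEG samples, beside 5.62 to 6.58 in the PBS-challenged controls. The 3 CuO NH3 samples were more than 3 log2 units above every CuO PEG sample, and the log2 fold change was 4.02 ± 0.41 (SE), a 16.2-fold difference (limma adjusted p = 3.61e-10). Arg1, arginase 1 of alternatively activated macrophages, was 11.66, 11.38 and 11.48 after CuO NH3 and 8.22, 8.17 and 8.80 after CuO PEG, 8.65-fold apart (limma adjusted p = 1.73e-05). Dmbt1, a scavenger receptor protein secreted by epithelium, differed by 2.73 on the log2 scale, and Ltf, the iron-binding lactoferrin of neutrophil granules and glandular epithelium, by 2.60. Angptl4, a secreted inhibitor of lipoprotein lipase, was 14.90, 14.68 and 14.78 after CuO NH3 and 12.57, 12.08 and 11.95 after CuO PEG (log2 fold change 2.58 ± 0.27, limma adjusted p = 7.29e-10). The controls lay between 12.31 and 12.94, so the CuO NH3 samples were above all controls while 2 of the 3 CuO PEG samples were below all of them. Kng1, which encodes kininogen, differed by 2.39, and its 3 probes gave differences from 1.15 to 3.65. The stefin-like genes Cstdc5, Stfa1 and Stfa2, cysteine protease inhibitors expressed by neutrophils, differed by 2.39, 2.33 and 2.15, and as near-identical copies they may share signal on the array. Sprr1a, a cornified envelope protein of stressed epithelium, was 4.23-fold higher after CuO NH3.

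The 10 largest falls held products of club cells, lymphocytes, erythrocytes and the circadian clock. Scgb3a2, a secretoglobin of airway club cells, was 12.89, 12.45 and 13.12 after CuO NH3 and 15.73, 15.63 and 15.52 after CuO PEG (log2 fold change −2.80 ± 0.43, limma adjusted p = 2.93e-06). The CuO PEG samples lay near the lowest of the 7 controls (15.70 to 16.56), and the CuO NH3 samples lay far below them. Dbp, a clock output transcription factor, fell by 2.56, Gzma, granzyme A of cytotoxic lymphocytes, by 2.28 and Ccl5, a chemokine made by T and NK cells, by 2.27. Cyp2f2, a cytochrome P450 of club cells, fell by 1.91, Esm1, a proteoglycan secreted by endothelium, by 1.90, the globin gene Hbb-bt by 1.75, and Ms4a4b, a membrane protein of T cells, by 1.74. Colq, the collagen tail subunit of acetylcholinesterase, was 8.35, 8.40 and 8.20 after CuO NH3, 10.02, 10.20 and 9.89 after CuO PEG and 11.25 to 11.99 in controls. Cfd, adipsin, fell by 2.33 (SE 0.69, limma adjusted p = 0.0121), and its levels in the 7 controls spread from 8.70 to 11.11. Its 2 probes gave differences of −2.83 and −1.83.

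**Figure D2:**
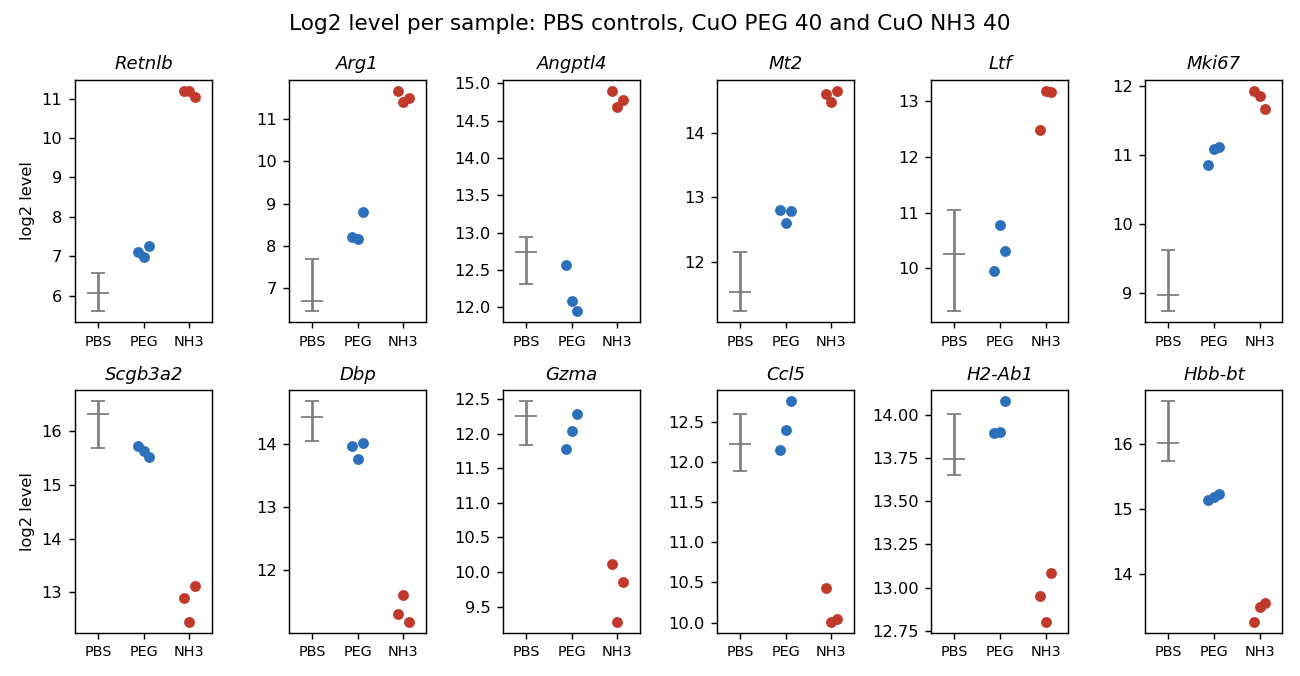
Normalised log2 level (y axis) of 12 genes after CuO PEG and CuO NH3 at 40 μg/mouse (x axis, 1 point per sample) and in the 7 PBS-challenged controls (grey, lowest, median and highest). The axes do not start at 0. Retnlb is at 11.04 to 11.20 in the CuO NH3 samples and at 6.99 to 7.27 in the CuO PEG samples.

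Genes that bind and move copper and zinc were few among the DEGs, and the ones that differed were the metallothioneins and a zinc transporter. Of 18 measured genes of copper and zinc handling, 3 were higher after CuO NH3 (2.70% of all genes were), 0 were lower (2.10% of all genes were) and 15 were not called (list median −0.02, all genes 0.00). Mt2 was 14.59, 14.48 and 14.65 after CuO NH3 and 12.80, 12.60 and 12.78 after CuO PEG, with controls at 11.24 to 12.14. All 3 samples of each material stood above all controls, and the materials differed 3.60-fold (log2 fold change 1.85 ± 0.31, limma adjusted p = 1.39e-05). Mt1 was 11.93, 12.03 and 12.14 after CuO NH3, 10.64, 10.28 and 10.47 after CuO PEG and 9.77 to 10.45 in controls, where CuO PEG samples and controls overlapped. The difference between the materials was 1.57 ± 0.21 (limma adjusted p = 1.71e-07), and the 2 probes of Mt1 gave differences of 1.05 and 2.09. The list had 3 called genes under each alternative and with each sample left out. Slc39a14, which imports zinc and iron, differed by 1.19 (levels of 9.40 to 9.61 against 8.18 to 8.37). The copper importer Slc31a1 (−0.03), the copper-exporting ATPases Atp7a (−0.01) and Atp7b (−0.33), and the copper chaperones Atox1 (−0.05), Ccs (0.02) and Cox17 (−0.12) were not called.

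The promoters of the metallothionein genes are shown because their 2 transcripts led this list. The windows run from 250 bases before to 50 bases after the RefSeq gene start (GRCm38.p6), 5′ to 3′ on the gene strand, and capitals mark matches to the core of the metal response element (TGCACNC or TGCGCNC, searched on both strands). Mt1 lies at chr8:94178839-94179138 on the + strand and holds 3 matches, and Mt2 lies at chr8:94172368-94172667 on the + strand and holds 4.
Mt1: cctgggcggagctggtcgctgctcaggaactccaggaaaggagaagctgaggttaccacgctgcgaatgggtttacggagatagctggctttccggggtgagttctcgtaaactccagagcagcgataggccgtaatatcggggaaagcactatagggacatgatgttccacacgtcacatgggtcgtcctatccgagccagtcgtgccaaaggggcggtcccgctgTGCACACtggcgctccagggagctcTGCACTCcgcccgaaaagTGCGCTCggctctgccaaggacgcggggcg
Mt2: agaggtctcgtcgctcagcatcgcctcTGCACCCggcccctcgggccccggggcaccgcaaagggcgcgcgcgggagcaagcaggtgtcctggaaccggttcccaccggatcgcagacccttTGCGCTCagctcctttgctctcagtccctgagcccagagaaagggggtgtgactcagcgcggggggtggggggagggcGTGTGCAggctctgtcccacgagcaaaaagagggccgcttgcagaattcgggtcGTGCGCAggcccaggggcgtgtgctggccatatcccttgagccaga
Of 32851 promoter windows of the same length, 25.7% held at least 1 match, 1.97% at least 3 and 0.517% at least 4. Of the 18 genes of the list, 13 had a window, 8 of them with at least 1 match and 2 with at least 3. A match is a description of the letters and not of binding.

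Antioxidant and chaperone genes differed in a few members only. Of 23 targets of the oxidant-sensing factor Nrf2, 2 were higher, 1 was lower and 20 were not called (median 0.14). Over all genes 2.70% were higher and 2.10% lower. Counts of 1 or 2 in the lists of this paragraph are therefore not read as a result for the list. Hmox1, heme oxygenase, was 12.59, 12.69 and 12.69 after CuO NH3 and 11.36, 11.21 and 11.44 after CuO PEG (log2 fold change 1.32 ± 0.38, limma adjusted p = 0.00966), while the controls spread from 8.15 to 10.82. The call was lost without CuO PEG replicate 2 (limma adjusted p = 0.0785). Gpx2, a glutathione peroxidase, was higher by 0.64, not called without CuO PEG replicate 1 or with each array as a fixed term, and Gstm1, a glutathione transferase, lower by 0.87. Nqo1, a quinone reductase and classical Nrf2 target, had a difference of 0.00 with a 95% interval from −0.43 to 0.44. Of 18 heat shock proteins and co-chaperones, 1 was higher after CuO NH3. This was Hspa1a, an inducible Hsp70, at 13.71, 12.88 and 13.75 against 11.58, 11.06 and 11.61 (limma adjusted p = 0.00282), and the call was lost without CuO PEG replicate 2 or with each array as a fixed term. Its near-identical neighbour Hspa1b had a difference of 1.36 with a limma adjusted p of 0.0689, and the probes of the pair may share signal. None of 31 proteasome subunits was called in either direction (median 0.15). Of 20 genes of the p53 and DNA damage response 2 were higher, Cdkn1a, a cell cycle inhibitor, by 0.75 and Gadd45g by 0.64. The 2 probes of Cdkn1a gave differences of 0.40 and 1.10, the former below the fold threshold. Ripk3, a kinase of necroptosis, was the only one called of 13 cell death effectors, at 10.24, 10.19 and 10.20 after CuO NH3 and 9.47, 9.45 and 9.27 after CuO PEG.

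Neutrophil genes were higher after CuO NH3 in part of the list. Of 22 measured genes 11 were higher, 1 was lower and 10 were not called (median 0.63), and the mean level of the list was 10.35 to 10.73 in the CuO NH3 samples, 9.62 to 9.79 in the CuO PEG samples and 9.29 to 9.51 in controls. Mmp8, neutrophil collagenase, was 10.44, 10.51 and 10.50 against 8.61, 8.36 and 8.53 (log2 fold change 1.98, limma adjusted p = 2.93e-07). Stfa2l1 differed by 2.04, Il1r2, the decoy receptor of IL-1, by 1.24 and the calprotectin subunit S100a8 by 1.07. Csf3r, the receptor of G-CSF, was the member that was lower (−0.65), and 0 members were without CuO NH3 replicate 1. Lcn2, lipocalin 2, which epithelium also makes, had a difference of 0.11 (95% interval −0.56 to 0.78), and S100a9 one of 0.62 that did not pass (limma adjusted p = 0.23). The count of 11 fell to 4 without CuO NH3 replicate 3, which lay alone of these samples on slide 6, and to 2 with each array as a fixed term. In whole lung RNA, more cells of a type and more RNA per cell cannot be told apart.

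Chemokines that attract neutrophils and monocytes were higher than in controls after both materials and were mostly not called between them. Against controls, 5 of 9 CXCR2 ligands and neutrophil growth factors were higher after CuO NH3 and 4 after CuO PEG. Over all genes 6.82% and 2.30% were higher than in controls. Between the materials, 0 of the 9 were higher after CuO NH3 and 1 was lower, beside 2.70% and 2.10% of all genes. Cxcl1 was 10.35, 9.88 and 10.94 after CuO NH3 and 10.26, 10.53 and 10.37 after CuO PEG, with overlapping samples and a difference of 0.00 (95% interval −0.81 to 0.81), and it stood 2.59 above controls after either material. Csf2, GM-CSF, was the lower member, at 7.75, 7.52 and 7.89 after CuO NH3 and 8.57, 8.91 and 8.75 after CuO PEG (log2 fold change −1.02 ± 0.16, limma adjusted p = 7.29e-06). Its controls lay at 7.37 to 7.76, below the 3 CuO PEG samples and overlapping with the CuO NH3 samples. Ccl2, the main chemokine for monocytes, was 13.12, 13.32 and 13.36 after CuO NH3 and 12.44, 12.58 and 12.61 after CuO PEG against 7.95 to 9.76 in controls. The samples of the materials did not overlap, but the difference of 0.72 ± 0.47 did not pass (limma adjusted p = 0.344), with a 95% interval from −0.23 to 1.67. This SE rests on a spread estimated over all 26 groups and not on these 6 samples alone. The SD of Ccl2 was 0.13 after CuO NH3 and 0.09 after CuO PEG, beside 0.90 after CuO NH3 at 40 μg/mouse in OVA-challenged mice.

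The other genes that the study measured by PCR were also not called. The differences were 0.65 for the chemokine Ccl7 (95% interval −0.37 to 1.67), 0.38 for the alarmin Il33 (−0.03 to 0.79), −0.11 for Tnf (−0.54 to 0.31) and −0.16 for the eosinophil attractant Ccl11 (−0.76 to 0.44). Il13 was not well above background in any of the 6 samples, so no fold is given for it.

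Cytokine and acute phase genes differed in some members. Of 19 genes of the IL-1, IL-6 and TNF families with their feedback genes 4 were higher and 0 lower (median 0.20). Il6 was 8.10, 7.73 and 8.38 after CuO NH3, 6.81, 6.67 and 6.78 after CuO PEG and 5.49 to 6.22 in controls (log2 fold change 1.32 ± 0.32, limma adjusted p = 0.00217). Il11 was higher by 1.21, and Socs3 and Bcl3, feedback regulators downstream of these cytokines, by 0.68 and 0.59. The count was 2 without CuO NH3 replicate 3 and 1 with each array as a fixed term. Of 18 acute phase genes 5 were higher, 2 lower and 11 not called (median 0.28). The higher count was 3 without CuO PEG replicate 2 or CuO NH3 replicate 3 and 2 with each array as a fixed term, and the lower count was 1 without CuO PEG replicate 2 or CuO NH3 replicate 2 and 0 with each array as a fixed term. The protease inhibitor Serpina3n was 12.11, 12.12 and 12.98 after CuO NH3 and 10.65, 10.50 and 10.79 after CuO PEG (log2 fold change 1.76 ± 0.30, limma adjusted p = 1.57e-05), Serpina3m differed by 1.72 and the orosomucoids Orm1 and Orm2 by 1.44 and 1.37. These pairs are close paralogs whose probes may share signal. Itih4, an inhibitor heavy chain of plasma, was the largest of the lower members at −0.91. Serum amyloid Saa3 was 15.11, 15.47 and 16.19 after CuO NH3 and 15.36, 14.34 and 15.18 after CuO PEG, overlapping and not called (difference 0.63, 95% interval −0.59 to 1.85), and both materials were far above the controls at 10.04 to 12.44.

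Most mitotic genes were higher than in controls after both materials and higher after CuO NH3 than after CuO PEG. Of 36 mitotic genes 26 were higher after CuO NH3 than after CuO PEG and 0 were lower (median 0.81), with 22 to 29 higher under the alternatives. Against controls 35 were higher after CuO NH3 and 32 after CuO PEG, with medians of 2.12 and 1.14. Over all genes 6.82% and 2.30% were higher than in controls. Plk1, a kinase of mitotic entry, was 11.03, 11.17 and 10.83 after CuO NH3, 9.73, 9.76 and 9.97 after CuO PEG and 7.83 to 8.71 in controls. The 3 groups did not overlap, and the materials differed by 1.19 ± 0.21 (limma adjusted p = 4.12e-05). The cyclins Ccne1 and Ccna2 differed by 1.17 and 1.16 and the survivin gene Birc5 by 1.15. The proliferation marker Mki67 differed by 0.80 (limma adjusted p = 0.00162), with levels of 11.66 to 11.93 against 10.86 to 11.11.

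Many genes of matrix turnover and repair were higher after CuO NH3, and the others were not called. Of 18 genes of wound matrix, plasminogen and coagulation 10 were higher and 0 lower (median 0.71), 8 to 11 higher under the alternatives. Tnc, tenascin C, was 9.06, 9.22 and 8.83 after CuO NH3, 7.36, 7.55 and 7.54 after CuO PEG and 6.33 to 6.70 in controls (log2 fold change 1.56 ± 0.19, limma adjusted p = 2.96e-08). The EGF receptor ligands Ereg and Areg were higher by 1.90 and 1.31, with Ereg well above background in 2 of the 3 CuO PEG samples, and the activin subunit Inhba by 1.39. Osteopontin, Spp1, was 14.93, 14.79 and 14.59 against 13.40, 13.85 and 13.53, with controls at 10.11 to 11.24 (limma adjusted p = 0.0107). Of 15 metalloproteinases and inhibitors 8 were higher and 0 lower (median 0.77), led by the aggrecanase Adamts4 (9.11, 9.07 and 8.91 against 6.99, 7.13 and 6.91) and Mmp8, followed by Timp1 (14.10, 14.05 and 14.78 against 12.46, 12.40 and 12.63, controls 9.19 to 10.75). Mmp12, macrophage elastase, had a difference of −0.77 that did not pass (limma adjusted p = 0.13). Of 14 collagens 7 were higher and 0 lower (median 0.61). Col1a1 was 14.13, 14.00 and 13.69 against 12.57, 12.93 and 12.60 and Col5a1 differed by 1.27. With each array as a fixed term 2 metalloproteinase genes and 3 collagens were called, and without CuO PEG replicate 2 there were 5 metalloproteinase genes. With the replicate number as a block 1 metalloproteinase gene was lower.

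**Figure D3:**
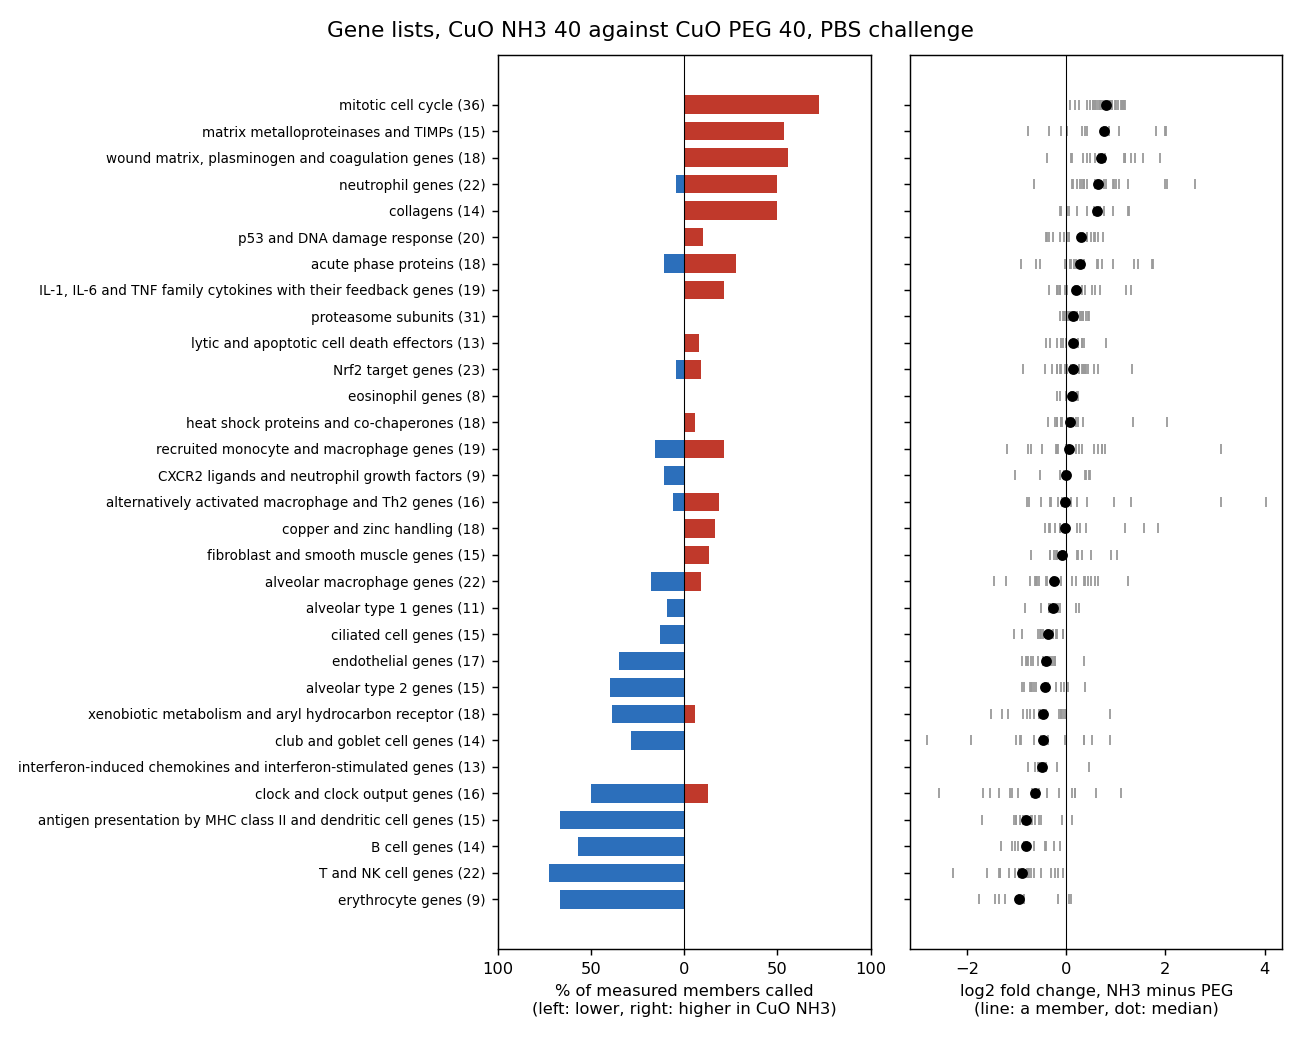
Members of each gene list shown that were called higher or lower after CuO NH3 than after CuO PEG at 40 μg/mouse, as a percent of the measured members (left x axis), and log2 fold change of each member with the list median (right x axis), by list with its number of measured members (y axis). Mitotic genes have 26 of 36 members higher, and T and NK cell genes have 16 of 22 lower.

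Most of the measured genes of lymphocytes and of antigen presentation were lower after CuO NH3. Of 22 T and NK cell genes 16 were lower, 0 higher and 6 not called (median −0.88), and the mean level of the list was 7.48 to 7.73 after CuO NH3, 8.35 to 8.67 after CuO PEG and 8.17 to 8.66 in controls. The CuO NH3 samples lay below the range of the controls and the CuO PEG samples did not. Against controls 15 of the 22 were lower after CuO NH3 and 0 after CuO PEG, beside 5.41% and 0.751% of all genes. Gzma was 10.12, 9.28 and 9.86 after CuO NH3, 11.78, 12.03 and 12.29 after CuO PEG and 11.83 to 12.46 in controls (log2 fold change −2.28 ± 0.25, limma adjusted p = 2.02e-09). The NK receptor Klrd1 was lower by 1.60, the granule protein Nkg7 by 1.36 and Ccr7, the lymph node homing receptor, by 1.34. Of the general T cell genes, Cd3d was lower by 1.15, Cd3g, Lck and Zap70 by 0.94 each and Cd28 by 0.86, while Cd3e (−0.50) and Cd4 (−0.22) did not reach the fold threshold. Between 13 and 17 members were lower under the alternatives. Of 14 B cell genes 8 were lower (median −0.81), among them the surface antigen Ms4a1 (8.66, 8.16 and 9.16 against 10.01, 10.36 and 9.52) and the antigen receptor subunit Cd79b (−1.03). This count was 0 without CuO PEG replicate 2 and 0 with each array as a fixed term.

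Of 15 genes of MHC class II presentation and dendritic cells 10 were lower and 0 higher (median −0.81). Cd83, a maturation marker of dendritic cells, was 8.77, 8.50 and 8.56 after CuO NH3, 10.17, 10.39 and 10.37 after CuO PEG and 9.67 to 9.92 in controls. The CuO PEG samples were above all controls and the CuO NH3 samples below all of them, a difference of −1.70 ± 0.21 (limma adjusted p = 2.31e-08). The class II chains H2-Ab1 and H2-Eb1 were lower by 1.01 and 1.06, and the invariant chain Cd74 by 1.02. H2-Ab1 was 12.95, 12.80 and 13.08 after CuO NH3, 13.89, 13.90 and 14.08 after CuO PEG and 13.65 to 14.00 in controls. With each array as a fixed term 6 of the 15 were lower.

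Macrophage genes were divided. Of 22 alveolar macrophage genes 2 were higher and 4 lower (median −0.25), beside 2.70% higher and 2.10% lower of all genes. Fabp1, a fatty acid-binding protein, was 7.11, 6.97 and 7.29 after CuO NH3 and 9.02, 8.39 and 8.34 after CuO PEG, both below the controls at 9.68 to 10.39, and the lipid droplet gene Cidec was lower by 1.20. Plin2, the perilipin that coats lipid droplets, was higher by 1.26 (11.86, 11.84 and 11.97 against 10.53, 10.46 and 10.91). The lower count was 2 without CuO PEG replicate 3 and 0 with each array as a fixed term. Of 19 genes of recruited monocytes and macrophages 4 were higher, with Arg1 first, and 3 lower, with the lysozyme gene Lyz1 first (−1.19). The higher count was 1 without CuO PEG replicate 2 and 2 without CuO PEG replicate 1 or CuO NH3 replicate 3, the lower count was 1 without CuO NH3 replicate 1 or replicate 2, and both were 1 with each array as a fixed term. Of 16 genes of alternative activation and type 2 responses 3 were higher, Retnlb, Arg1 and Retnla, and Ccl17 was lower by 0.79, a call lost without CuO NH3 replicate 1, CuO NH3 replicate 2 or CuO PEG replicate 2, with slides 4 to 6 alone and with each array as a fixed term. Retnla was 16.78, 15.64 and 17.35 after CuO NH3 and 14.60, 15.83 and 15.42 after CuO PEG. These samples overlapped, within slide 5 the sign was turned (−0.19), and the call was lost without CuO PEG replicate 1 or 3, without CuO NH3 replicate 1 or 3 and under 5 of the 11 alternatives. Of 8 eosinophil genes none was called, and the eosinophil peroxidase gene Epx had a difference of 0.11 (95% interval −0.51 to 0.72).

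Epithelial and endothelial genes were lower after CuO NH3 in some members. Of 14 club and goblet cell genes 4 were lower and 0 higher (median −0.47), 3 to 4 under the alternatives. Besides Scgb3a2 and Cyp2f2, these were Scgb1a1, the principal club cell secretoglobin (16.21, 16.64 and 16.83 against 17.45, 17.42 and 17.60), and Aldh1a1, a retinaldehyde dehydrogenase (−0.91). Of 15 alveolar type 2 genes 6 were lower than after CuO PEG (median −0.43). Against controls, 2 of the 15 were higher and 2 lower after CuO NH3, and 4 were higher and 0 lower after CuO PEG. Over all genes 6.82% were higher and 5.41% lower after CuO NH3, and 2.30% and 0.751% after CuO PEG. The counts of 2 after CuO NH3 are near those shares and are not read as a result for the list. The mean level of this list was 13.39 to 13.54 after CuO NH3, within the controls at 13.23 to 13.60. After CuO PEG it was 13.83 to 13.89, above all controls. Surfactant protein A, Sftpa1, was 15.28, 15.34 and 15.43 after CuO NH3 and 16.29, 16.15 and 16.29 after CuO PEG, with the controls between them at 15.74 to 15.93 (log2 fold change −0.90 ± 0.11, limma adjusted p = 5.27e-08). Sftpc, which marks alveolar type 2 cells, had a difference of −0.43 that did not pass (limma adjusted p = 0.105). Of 15 ciliated cell genes Tppp3 (−1.06) and Dnah5 (−0.89) were lower, and of 11 alveolar type 1 genes Clic5 was (−0.83). Over all genes 2.10% were lower, so counts of 1 or 2 are not read as a result for these lists. Of 17 endothelial genes 6 were lower and 0 higher (median −0.40), among them Kdr, the main VEGF receptor, at 11.67, 11.59 and 11.64 against 12.40, 12.43 and 12.42. Against controls 15 of these 17 were lower after CuO NH3 and 1 after CuO PEG, and of the club and goblet cell genes 8 and 2. These stand beside 5.41% of all genes lower after CuO NH3 and 0.751% after CuO PEG. With each array as a fixed term 3 type 2 and 3 endothelial genes were lower. Of 15 fibroblast and smooth muscle genes 2 were higher (2.70% of all genes were), the elastin gene Eln by 1.03 and the desmin gene Des by 0.91.

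Erythrocyte genes moved with the material as well. Of 9 measured genes 6 were lower after CuO NH3 (median −0.96), and the mean level of the list was 9.25 to 9.31 in the CuO NH3 samples, 10.02 to 10.29 in the CuO PEG samples and 10.37 to 10.83 in controls. Alas2, the heme synthesis enzyme of red cells, was 8.90, 9.06 and 9.04 against 10.12, 10.51 and 10.67, and the globins Hbb-bt and Hba-a1 were lower by 1.75 and 1.34. The globin copies may share signal, and with each array as a fixed term 1 erythrocyte gene was lower. The part of blood content in the lymphocyte, neutrophil and endothelial differences was not tested.

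Some genes of the circadian clock and of xenobiotic metabolism were lower after CuO NH3. Of 16 clock genes 8 were lower and 2 higher (median −0.62), with 7 to 8 lower under the alternatives. Dbp was 11.30, 11.60 and 11.18 after CuO NH3, 13.97, 13.77 and 14.03 after CuO PEG and 14.05 to 14.68 in controls. The repressor Nr1d1 was 8.16, 8.63 and 8.16 against 9.91, 9.92 and 10.13 (log2 fold change −1.67 ± 0.28, limma adjusted p = 1.69e-05), and Hlf and Nr1d2 were lower by 1.54 and 1.35. The 2 higher members were Nfil3 (1.10), which competes with Dbp, Hlf and Tef for D-box elements, and Arntl (0.61), whose phase is opposite to theirs. Per3 was 6.89, 7.14 and 6.77 after CuO NH3 and 8.11, 8.02 and 8.05 after CuO PEG (limma adjusted p = 2.53e-05). Its promoter is shown because it holds more than 1 D-box. The window lies at chr4:151044616-151044915 on the − strand (GRCm38.p6, RefSeq, 5′ to 3′ on the gene strand), and capitals mark the 2 matches to TTATGTAA or TTATGCAA, searched on both strands.
Per3: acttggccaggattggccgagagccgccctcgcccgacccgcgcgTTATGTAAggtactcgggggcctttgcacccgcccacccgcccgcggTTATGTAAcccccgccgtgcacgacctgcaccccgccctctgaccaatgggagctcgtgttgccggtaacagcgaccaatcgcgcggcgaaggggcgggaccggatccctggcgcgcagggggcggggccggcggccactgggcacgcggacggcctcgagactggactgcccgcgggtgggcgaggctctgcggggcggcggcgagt
At least 2 matches were found in 0.0487% of the 32851 windows and at least 1 in 1.66%, and of 15 clock genes with a window 2 held a match. The hour of day at which each group was killed was not given in the sources used here.

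Of 18 genes of xenobiotic metabolism and the aryl hydrocarbon receptor 7 were lower and 1 higher (median −0.47), 6 to 8 lower under the alternatives. The aldehyde oxidase Aox3 was 6.61, 6.55 and 6.62 after CuO NH3 and 7.74, 7.94 and 7.98 after CuO PEG, and the P450 Cyp2s1 was lower by 1.17. Cyp1b1 was the higher member (0.89), not called without CuO NH3 replicate 3 or with each array as a fixed term, while Cyp1a1, the classical receptor target, had a difference of −0.09.

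In OVA-challenged mice at 40 μg/mouse, 445 genes (1.94%) differed between the materials, 161 (0.703%) higher and 284 (1.24%) lower after CuO NH3. With each array as a fixed term the count was 0, and it was 247 without CuO NH3 OVA replicate 3. Of the 445 genes, 281 (63.1%) were also called in PBS-challenged mice in the same direction (25.6% of the 1098), and 0 in the opposite direction. Retnlb differed by 2.20 in OVA-challenged mice and Hspa1a by 2.39, with Hspa1a at 12.60, 13.43 and 14.07 after CuO NH3 and 10.47, 11.04 and 11.42 after CuO PEG. Of 22 T and NK cell genes 12 were lower and of 15 MHC class II and dendritic cell genes 9. Of the mitotic genes 6 of 36 were higher, and of the neutrophil genes 1 of 22. Without CuO NH3 OVA replicate 3 the T and NK cell count was 3 and the mitotic count 0, and without CuO NH3 OVA replicate 2 the neutrophil count was 0.

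Of the 33 lists, interferon-induced genes had the largest share of members lower after CuO NH3 in OVA-challenged mice, 12 of 13 (median −1.58), beside 0 of 13 in PBS-challenged mice (median −0.49). Isg15, a ubiquitin-like protein induced by interferon, was 11.56, 12.18 and 12.26 after CuO NH3 and 14.68, 12.99 and 14.23 after CuO PEG in OVA-challenged mice (log2 fold change −1.97, limma adjusted p = 0.00104). In PBS-challenged mice it was 11.44, 11.13 and 11.64 against 11.99, 11.83 and 12.03, a difference of −0.54 that did not pass (limma adjusted p = 0.415). The test of the difference between the challenges did not pass for Isg15 (−1.42, limma adjusted p = 0.776), and it called 0 of all 22911 genes, with 1356 at an unadjusted p below 0.05. The interferon count was 4 without CuO PEG OVA replicate 1. The other largest falls in OVA-challenged mice were Ifi44 (−1.98) and Irf7 (−1.92), both of them interferon-induced.

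**Figure D4:**
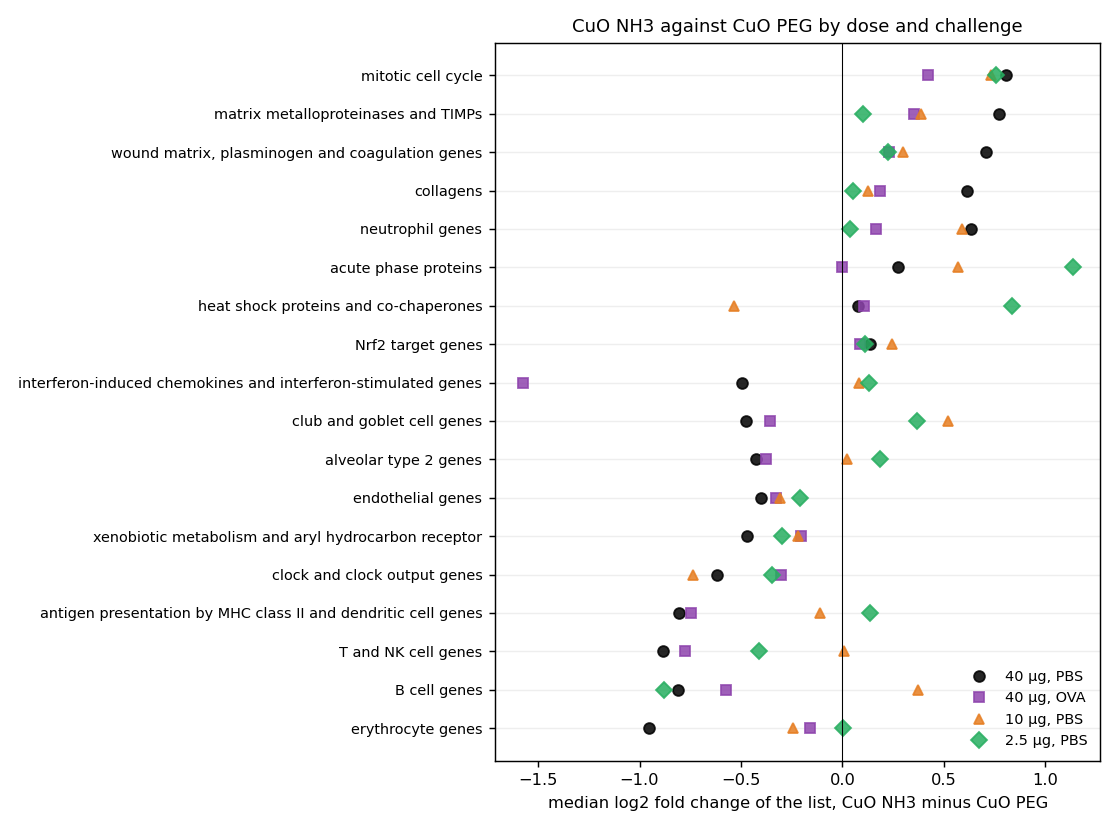
Median log2 fold change of CuO NH3 against CuO PEG (x axis) for a selection of the gene lists (y axis), with 1 symbol each for 40 μg/mouse in PBS-challenged mice, 40 μg/mouse in OVA-challenged mice, and 10 and 2.5 μg/mouse in PBS-challenged mice. Mitotic genes have medians of 0.81, 0.42, 0.73 and 0.76, and interferon genes −0.49, −1.58, 0.08 and 0.13.

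At 10 μg/mouse in PBS-challenged mice 477 genes (2.08%) differed, 335 (1.46%) higher and 142 (0.620%) lower after CuO NH3, and at 2.5 μg/mouse 419 (1.83%), 294 (1.28%) higher and 125 (0.546%) lower. These groups share no samples with those at 40 μg/mouse, and differences between doses were not tested. Of the 477 genes 255 (53.5%) were called in the same direction at 40 μg/mouse and 3 in the opposite one. Of the 419 genes 175 (41.8%) were called in the same direction and 16 in the opposite one. Mitotic genes were higher after CuO NH3 in 23 of 36 members at 10 μg/mouse and in 21 at 2.5 μg/mouse. Mt2 was 13.03 to 13.65 after CuO NH3 and 11.19 to 12.65 after CuO PEG at 10 μg/mouse, and 12.00 to 12.89 against 11.26 to 11.48 at 2.5 μg/mouse, with limma adjusted p-values of 1.14e-05 and 0.0105. Retnlb differed by 1.63 at 10 μg/mouse (7.28 to 8.06 against 5.74 to 6.69), and its difference of 0.39 at 2.5 μg/mouse was not called. Dbp was lower at both doses, by 1.66 and 1.19, with no overlap between the materials.

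Chemokines and acute phase genes were called between the materials at the lower doses. Ccl2 was 12.00 to 12.54 after CuO NH3 and 9.38 to 10.84 after CuO PEG at 10 μg/mouse, and 11.00 to 12.21 against 8.76 to 9.06 at 2.5 μg/mouse. The log2 fold changes were 2.06 and 2.81 (limma adjusted p = 2.86e-04 and 2.91e-05). Cxcl5, a neutrophil-attracting chemokine of epithelium, differed by 2.64 and 3.66, while its difference at 40 μg/mouse was −0.52 (95% interval −1.62 to 0.58). Of 18 acute phase genes 7 were higher at 10 μg/mouse and 14 at 2.5 μg/mouse, beside 1.46% and 1.28% of all genes. With each array as a fixed term these counts were 5 and 9. Saa3 differed by 1.86 and 4.54, the latter the largest rise at 2.5 μg/mouse, where it stood at 14.89 to 15.82 after CuO NH3 and 10.72 to 11.08 after CuO PEG. At 2.5 μg/mouse the CuO PEG samples were within the range of the controls for Saa3 and Ccl2, and the CuO NH3 samples were above it.

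Heat shock genes were called in opposite directions at the lower doses. Over all genes 1.46% were higher and 0.620% lower at 10 μg/mouse, and 1.28% and 0.546% at 2.5 μg/mouse. List counts of 1 to 3 with all samples are not read as a result for the list in this paragraph. Of 18 heat shock genes 0 were higher and 6 lower after CuO NH3 at 10 μg/mouse, and 13 were higher and 0 lower at 2.5 μg/mouse, with 5 higher and 1 lower when each array was a fixed term. Hspa1b differed by −1.63 at 10 μg/mouse and 3.87 at 2.5 μg/mouse. T and NK cell genes had 0 of 22 lower at 10 μg/mouse and 6 at 2.5 μg/mouse, and B cell genes 0 and 9 of 14. The 6 T and NK cell genes fell to 3 without CuO PEG 2.5 replicate 2 and to 2 with each array as a fixed term, and the 9 B cell genes to 0 without CuO PEG 2.5 replicate 3 and to 0 with each array as a fixed term. Neutrophil genes were higher in 7 of 22 members at 10 μg/mouse, 3 without CuO PEG 10 replicate 4. At 2.5 μg/mouse 4 were higher, 2 without CuO NH3 2.5 replicate 1. With each array as a fixed term the neutrophil counts were 2 at 10 μg/mouse and 3 at 2.5 μg/mouse. Clock genes were lower in 9 of 16 members at 10 μg/mouse and in 1 at 2.5 μg/mouse. Wound matrix genes were higher in 3 of 18 members at 10 μg/mouse and in 2 at 2.5 μg/mouse, and none of the 14 collagens was called at either dose. The largest differences at 10 μg/mouse also held Timp1 (2.46), the B cell chemokine Cxcl13 (2.32) and the cytochrome P450 gene Cyp2a5 (−1.60), and those at 2.5 μg/mouse Saa1 (3.92), the muscle gene Tcap (−1.76) and Fcmr, the IgM receptor (−1.75).

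**Figure D5:**
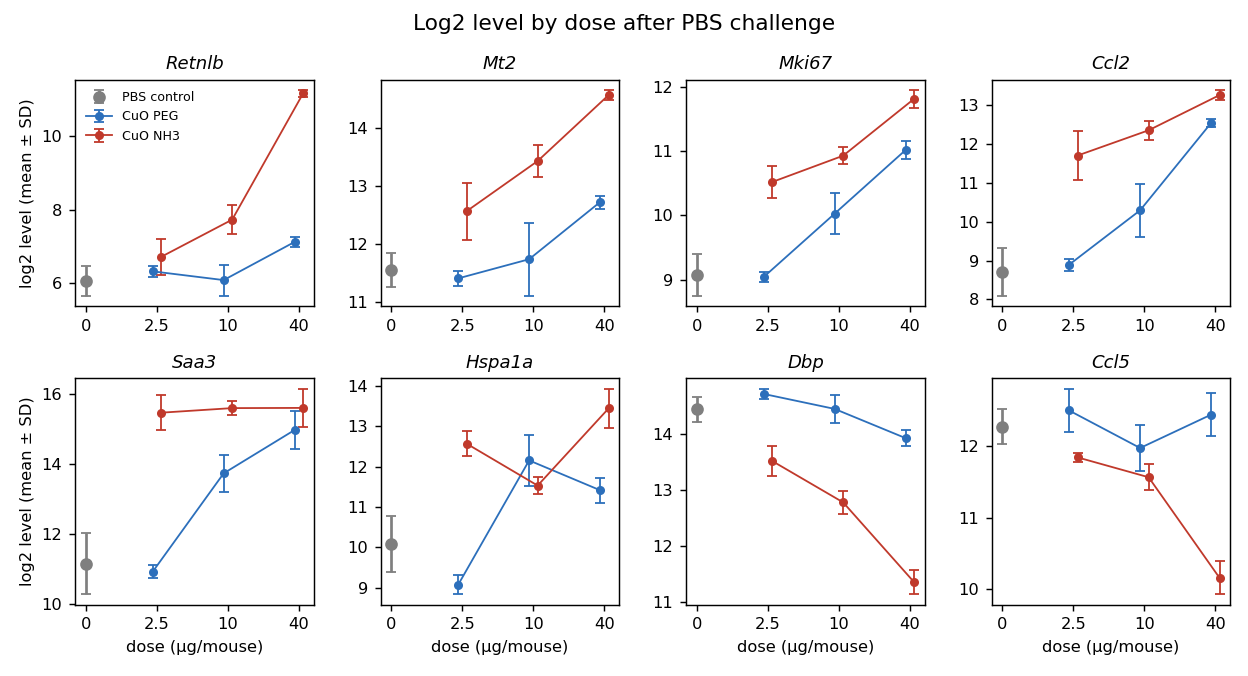
Normalised log2 level (y axis, not from 0) of 8 genes in PBS-challenged controls and at 2.5, 10 and 40 μg/mouse of CuO NH3 and CuO PEG (x axis, doses evenly spaced), as group means with the SD over samples (n = 7 for controls, 4 at 10 μg/mouse and 3 at the other doses). The materials stand apart in Saa3 by 4.54 at 2.5 μg/mouse, where they do not overlap, and by 0.63 at 40 μg/mouse, where they do.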

How the data were processed

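Lung RNA was measured on 2-colour Agilent mouse arrays, with 1 dye, Cy3 or Cy5, for each sample. The authors deposited scanner output with the median foreground and background intensity of each spot, unnormalised (Feature Extraction 12.0.2.2 in the file headers, another version in the methods), and a table of quantile-normalised log2 values that ranks the spots of each sample as its own channel does (Spearman correlation 1). In the methods the authors quantile normalised log2 values, adjusted them with ComBat and fitted limma.

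Here log2 foreground intensities of 89 samples were quantile normalised without background subtraction. Control and outlier-marked spots were left out, the other spots were averaged to 56605 probes, and the 32994 probes that the RefSeq table (GRCm38.p6) ties to a gene were averaged to 22911 genes. In R 4.3.3, limma 3.58.1 fitted the 26 groups with dye, slide and array position, with Benjamini-Hochberg adjustment over all genes. Intervals are 95% intervals of that fit. In simulated data for PBS-challenged mice at 40 μg/mouse, 200 of 22851 genes were given a difference of 1.5 log2 units. Of these 199 were recovered, with 4 false calls. This difference lies far above the fold threshold of 0.58 and the median of 0.76 over the DEGs. Recovery of smaller differences was not simulated, so the result does not cover most DEGs. The number of false calls in the measured data is not read from it. The number of arrays limits the precision. The p-values and SEs measure the spread between RNA pools, with 1 spread per gene estimated over all 26 groups. Figures were drawn with Python 3.11.15 and matplotlib 3.10.9.

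Groups came from the deposited labels. The materials, the 33 gene lists (563 of 572 entries matched a gene) and the tests were chosen with earlier results of these data known. Named were the 10 called genes with the largest rise and the 10 with the largest fall at 40 μg/mouse whose samples do not overlap, without predicted gene models, up to 4 called members of each list, members given as values, the genes the study measured by PCR, and up to 3 rises and 3 falls of each other comparison. Mki67, S100a8, Csf3r, Spp1, Itih4, Per3, Nfil3 and Arntl, called members beyond these, were named after their values were seen. The alternatives were normexp background correction (offset 50), loess with Aquantile, dim probes left out, the deposited table, ComBat, other batch terms, slides 4 to 6 alone, the replicate number as a block, and each sample left out. Dye and slide without position (1122 DEGs at 40 μg/mouse) were tried after seeing the data. A few genes, and 2 of the lists, are not reported here.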

Additional observations from a re-analysis of the deposited data

Results flagged for a closer look

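Among 78 sets of 4 to 10 samples of the genes named for their size, 10 held a sample far from the others. Chance gives about 1 in 20 for a single set. The same samples recur over the genes, so the sets are not independent and no excess over chance is read from them. Of the 10, 6 were CuO PEG replicate 1 at 10 μg/mouse. In that sample Dmbt1 was 8.92 (nearest other 6.10), Stfa1 8.37 (6.85), Stfa2 9.32 (8.36), Ms4a4b 10.31 (9.94), Dbp 14.06 (14.54) and Hbb-bt 15.29 (15.83). In CuO PEG replicate 4 at 10 μg/mouse, Scgb3a2 was 15.98 (16.05) and Cfd 7.21 (9.54). In the PBS-challenged controls, Dmbt1 was 7.25 in replicate 4 (6.19) and Colq 11.99 in replicate 3 (11.52). None of these samples is one of the 6 compared at 40 μg/mouse. The number of genes called at 10 μg/mouse was 477 with all samples, 697 without CuO PEG replicate 1 and 352 without CuO PEG replicate 4.

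Some named genes were called in opposite directions between CuO NH3 and CuO PEG in 2 of the comparisons, with no overlap of samples in either, and the difference between the comparisons was not tested. The B cell receptor for IgE, Fcer2a, had a log2 fold change of −0.98 at 40 μg/mouse, while at 10 μg/mouse it was 0.95. The dendritic cell chemokine Ccl17 had −0.79 at 40 μg/mouse, and its values at the lower doses of 10 and 2.5 μg/mouse were 0.72 and 2.28. Csf2 had −1.02 at the highest dose and 1.24 at the lowest. The chitinase-like gene Chil1 had −0.77 at the highest dose in PBS-challenged mice, −0.75 in OVA-challenged mice and 1.32 at the lowest dose. Hspa1b had 1.66 at the highest dose in OVA-challenged mice, and −1.63 at the middle dose and 3.87 at the lowest one in PBS-challenged mice. With each array as a fixed term 10 of these 13 calls were lost, and those kept were Csf2 at 40 μg/mouse and Ccl17 and Hspa1b at 2.5 μg/mouse. At 40 μg/mouse in PBS-challenged mice, Fcer2a and Ccl17 each lost the call without CuO NH3 replicate 1, CuO NH3 replicate 2 or CuO PEG replicate 2, and Chil1 without CuO NH3 replicate 1 or 2. In OVA-challenged mice Hspa1b (limma adjusted p = 0.0468) and Chil1 (limma adjusted p = 0.0361) each lost it with 5 of the 6 samples when left out in turn. At 10 μg/mouse Ccl17 lost it with 4 of the 8 samples and Hspa1b with 2. The remaining calls held with each sample left out.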

How the results depend on the processing

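At 40 μg/mouse in PBS-challenged mice the number of DEGs was 845 to 1179 under the alternatives, 859 with each array as a fixed term and 973 to 1173 with each sample left out. Dropping CuO NH3 OVA replicate 3 from the comparison in OVA-challenged mice gave 247, and leaving out each sample gave 247 to 514, while each array as a fixed term gave 0. The difference between the challenges had 0 to 2 calls with each sample left out, the 2 without CuO NH3 OVA replicate 1. Leaving out each sample gave 352 to 697 DEGs at 10 μg/mouse and 308 to 428 at 2.5 μg/mouse. Correlations of same-numbered deviations at 40 μg/mouse in PBS-challenged mice were low, at 0.05, 0.16 and 0.13. For replicate 1 another number correlated better (0.08). For replicates 2 and 3 the same number was the best match, with other numbers at most 0.10 and −0.03. These values do not settle whether the replicate numbers pair the samples. With the replicate number as a block the count was 1115 at 40 μg/mouse and 1628 in place of 698 for CuO PEG against controls, and it stayed within 1.5 times in the other comparisons. Of 122 named genes 71 kept their call in every alternative. The sign turned for Ccl11 with each array as a fixed term (0.16) and with slides 4 to 6 alone (0.070), and for Saa3 (−0.38) and Saa1 (−0.18) with each array as a fixed term, none of which was called. The cause was not tested. Signal over background was 1.41 to 2.87 in the 6 samples, and Il13, not well above background in any of them, was left out of the count of named genes.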
